A study of Mus musculus with 8 samples.

Results

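The ligands and receptors of the tumour necrosis factor (TNF) superfamily were examined in mouse small intestine 4 h after carbon-ion irradiation. Members were the array probes whose gene name starts with Tnfsf or Tnfrsf followed by a digit, leaving out Tnfrsf10b. This gave 39 probes of 30 genes among 39429 probes and 31131 gene names on the array. Of the 30 genes, 10 encode ligands, 19 encode receptors and 1, Tnfsf13os, is a transcript named as lying opposite to a ligand gene. A gene counted as measured when, in at least 1 group, each of its arrays had a signal well above background. That held for 26 of the 30 members and for 21821 genes in all, and the 26 comprised 8 ligands, 17 receptors and Tnfsf13os.

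All tissue came from female BALB/cA Jcl mice aged 8 weeks, was hybridised to 1-colour Agilent arrays, and fell into 4 groups of 2 arrays. The irradiated groups received 8 Gy after an intraperitoneal injection of saline (8 Gy saline), of fibroblast growth factor 1 (8 Gy FGF1) or of a chimeric protein built on that factor (8 Gy FGF1/CPP-C), and the remaining group received saline and 0 Gy (0 Gy saline). Per the design text, the segment was jejunum, and FGF1/CPP-C was given 12 h before irradiation. Slide 1 held replicate 1 of all 4 groups and slide 2 held replicate 2. No label states that replicates are different animals, so the p-values reflect spread between arrays alone, which could be technical.

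Ligands of this superfamily are mostly trimeric membrane proteins that can be shed, and they cluster their receptors on a neighbouring cell. Receptors without a death domain recruit TRAF adaptors and feed the NF-kB pathway, whereas receptors with a death domain can also start caspase-driven cell death, and decoy receptors bind ligand without signalling. In the gut wall, the members named for costimulation act mainly between antigen-presenting cells and T cells, the BAFF members sustain B cells and plasma cells, RANK serves the epithelium over lymphoid follicles, and the receptors for TNF itself are found on epithelial and stromal cells alike.

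Levels are given as log2 of the processed signal over the array's own 75th percentile, so 0 marks the signal of that percentile. A probe's level was never set against another probe's. The lowest value on this scale is a floor of -7.74. Log2 fold changes carry ± the standard error of a limma fit to all 8 arrays, and a gene was taken to differ when the limma p, adjusted by Benjamini-Hochberg over all genes of that comparison, was under 0.05. With 2 arrays against 2, an exact permutation test of a single gene cannot pass, because 33.3% of the possible relabellings separate the arrays completely.

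The 75th percentile of the processed signal lay between 1735 and 2165 intensity units on the 8 arrays, and 68.2% to 72.5% of probes were well above background. Markers of absorptive enterocytes, the defining cells of small intestine, had a median level of 6.06 to 6.93 on every array. The median of 13 measured stomach antrum markers was 2.71 on replicate 2 of 8 Gy saline, 1.94 on replicate 1 of 8 Gy FGF1 and 2.03 on replicate 1 of 0 Gy saline, and lay between -5.40 and -3.39 on the other 5 arrays. Of these markers, Tff2 and Gkn3 were the 2 that passed in limma, lower in 8 Gy FGF1/CPP-C. Tff2 was at -6.02 and -7.74 in 8 Gy FGF1/CPP-C and between 8.15 and 8.99 on the other 6 arrays, and Gkn3 was at -1.66 and -1.82 in 8 Gy FGF1/CPP-C and between 7.18 and 8.37 on the others. Both were lower in that group than in each other group (limma adjusted p between 0.00187 and 0.00430), so they differ in each comparison of that group. Tff1, Pgc, Vsig1, Ctse and Anxa10 were also lower on both its arrays than on each of the other 6. All 13 had a negative log2 fold change there against 0 Gy saline, with a median of -5.16. At an unadjusted limma p under 0.05, 7 of them were lower, where 11.2% of all genes were. Tff2 and Gkn3 were high also on arrays of low antrum median, such as replicate 2 of 0 Gy saline. On that array Tff2 stood at 8.99, Gkn3 at 8.23 and Gkn2, another listed marker, at -5.30. What Tff2 and Gkn3 mark on such arrays was not tested. The part of what these markers mark in the results for 8 Gy FGF1/CPP-C was not tested. The median of 15 measured pancreatic acinar genes was 2.82 on replicate 2 of 8 Gy saline and 5.39 on replicate 1 of 0 Gy saline, and lay between -5.20 and -1.40 elsewhere. The median of 9 measured B cell markers was -0.65 in 8 Gy FGF1/CPP-C replicate 2 and lay between -3.90 and -3.11 on the other 7 arrays.

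A ligand and a receptor of T cell costimulation were higher in every irradiated group. Tnfsf4 encodes the OX40 ligand, which costimulates T cells through OX40, and Tnfrsf18 encodes GITR, a costimulatory receptor of regulatory and activated T cells. The last 30 bases of their probes are shown because these are the measurements on which the finding rests. Both are in lower case, 5' to 3', and nothing in them is marked.
Tnfsf4: gggctatttttattatacagaatgatagtg
Tnfrsf18: cttgtacaagaataaatacttgtctagtaa
In the build mm9, which the array files use, the Tnfsf4 probe lies at chr1:163348095-163348153 and the Tnfrsf18 probe at chr4:155402941-155403000, both on the plus strand. Exon and UTR positions were not used here.

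The Tnfsf4 probe gave processed signals of 99.6 and 149.8 intensity units in 8 Gy saline, 114 and 110.0 in 8 Gy FGF1, 97.4 and 131 in 8 Gy FGF1/CPP-C, and 2.20 and 3.43 in 0 Gy saline. On the scaled log2 axis Tnfsf4 stood at -4.35 and -3.85 in 8 Gy saline, -4.22 and -4.21 in 8 Gy FGF1, -4.30 and -3.94 in 8 Gy FGF1/CPP-C, and at the floor of -7.74 on both arrays of 0 Gy saline. All 6 irradiated arrays were well above background and neither array of 0 Gy saline was, so the folds are bounds. Each sets the irradiated mean against the mean, over the arrays of 0 Gy saline, of the lowest signal found well above background there or the probe's own signal, whichever was higher. Tnfsf4 was at least 6.82-fold higher in 8 Gy saline, at least 6.29-fold higher in 8 Gy FGF1 and at least 6.73-fold higher in 8 Gy FGF1/CPP-C than in 0 Gy saline. The limma adjusted p-values were 0.00498, 0.00553 and 0.00411 for those 3 comparisons. Tnfsf4 passed the filter only through the groups where it was high, and its 2 values in 0 Gy saline are the same floor and have no spread, so these p-values leave out the spread of 0 Gy saline. With normexp background correction, which adds an offset to dim signals, the log2 fold changes were 1.04, 0.98 and 1.07, and the first 2 did not pass (adjusted p = 0.0781, 0.0550 and 0.0372). These comparisons share the same 2 arrays of 0 Gy saline.

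Tnfrsf18 was measured on all 8 arrays, with levels of 0.16 and 0.23 in 8 Gy saline, 0.13 and 0.21 in 8 Gy FGF1, 0.39 and 0.55 in 8 Gy FGF1/CPP-C, and -1.86 and -1.98 in 0 Gy saline. The lowest irradiated array was thus well over 1 log2 unit above the higher array of 0 Gy saline. Tnfrsf18 rose 4.34-fold in 8 Gy saline (log2 fold change 2.12 ± 0.10, limma adjusted p = 0.00498), 4.25-fold in 8 Gy FGF1 (2.09 ± 0.10, limma adjusted p = 0.00539) and 5.24-fold in 8 Gy FGF1/CPP-C (2.39 ± 0.10, limma adjusted p = 0.00200). Within slide 1 the 3 log2 fold changes of Tnfrsf18 were 2.03, 1.99 and 2.25, and within slide 2 they were 2.21, 2.19 and 2.53.

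**Figure D1:**
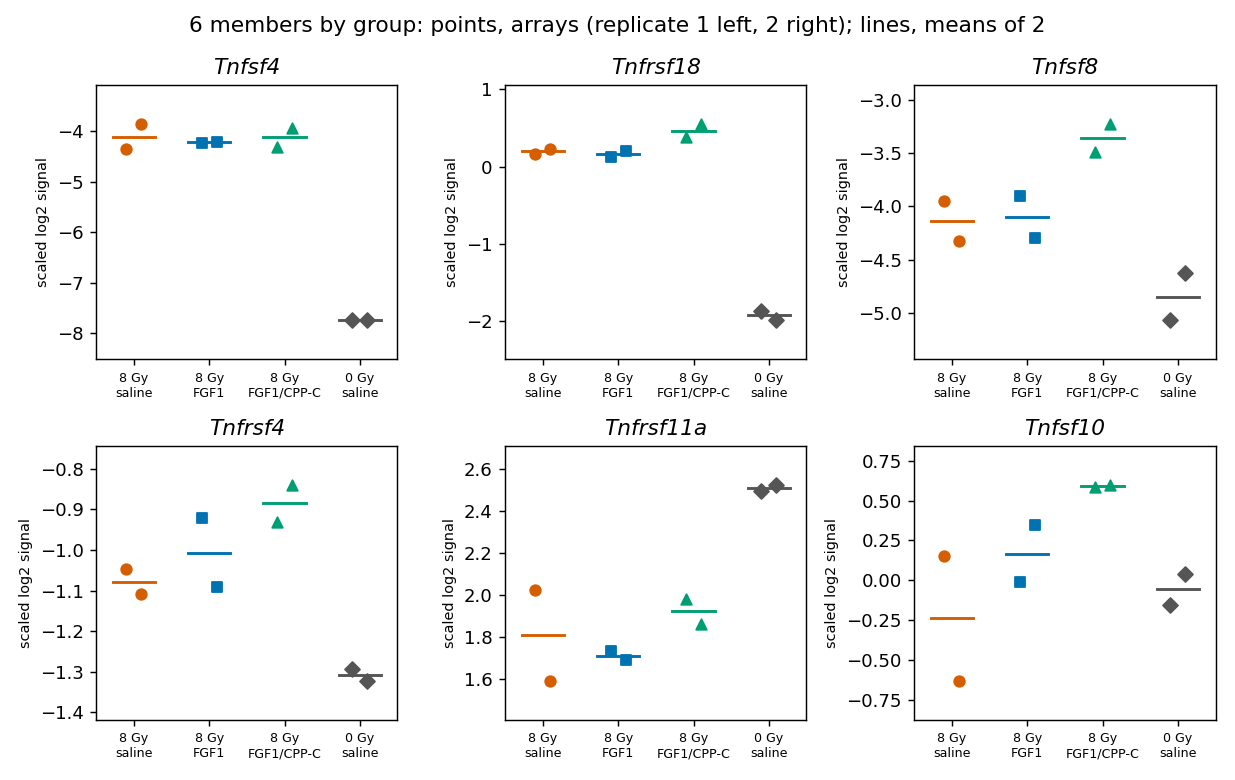
Scaled log2 signal (y axis) of Tnfsf4, Tnfrsf18, Tnfsf8, Tnfrsf4, Tnfrsf11a and Tnfsf10 in the 4 groups (x axis), with 1 point per array and a line at the mean of 2 arrays. In Tnfsf4 and Tnfrsf18 the 6 irradiated arrays lie apart from both arrays of 0 Gy saline, where Tnfsf4 is at the floor of -7.74.

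Irradiation without a growth factor is the contrast of 8 Gy saline with 0 Gy saline. Tnfsf4 and Tnfrsf18 rose, 2 of the 26 measured members, and no member fell, where 0.322% of the 21762 genes tested rose and 0.0873% fell. Tnfsf4 entered this count and those below through the irradiated groups and was known beforehand to be higher, so it is no support for the family as a set. With probes well above background on all arrays, only Tnfrsf18 rose, 1 of 25 members tested, where 79 of 20039 genes rose. The median log2 fold change was -0.17 over the members and -0.05 over all genes. The levels of 8 members lay above, and of 5 below, those of 0 Gy saline on both arrays, where 15.4% and 23.2% of all genes did so. Both calls were lost when either array of 0 Gy saline was left out. Without replicate 1 the adjusted p was 0.0545 for Tnfsf4 and 0.0510 for Tnfrsf18, and without replicate 2 it was 0.0953 for both, while the log2 fold changes were 3.64 for Tnfsf4 in both cases and 2.18 and 2.06 for Tnfrsf18.

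Tnfsf4 and Tnfrsf18 were also the 2 members that rose in 8 Gy FGF1 against 0 Gy saline, and none fell, where 0.602% of 21775 genes rose and 0.253% fell. The median was 0.00 over the members and -0.05 over all genes. Levels did not overlap with those of 0 Gy saline for 8 members above and 5 below, where the shares over all genes were 23.0% and 28.3%. Leaving out replicate 1 of 8 Gy FGF1 gave an adjusted p of 0.0668 for Tnfsf4 and 0.0556 for Tnfrsf18, and leaving out its replicate 2 gave 0.0914 and 0.0856. Without replicate 2 of 0 Gy saline both were at 0.0812, and without its replicate 1 Tnfsf4 was at 0.0589 and Tnfrsf18 at 0.0409.

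For 8 Gy FGF1/CPP-C against 0 Gy saline 3 members rose, Tnfsf4, Tnfrsf18 and Tnfsf8, and none fell, where 1.19% of 21776 genes rose and 0.730% fell. The median was 0.04 over the members and -0.02 over all genes. Levels lay above those of 0 Gy saline for 10 members and below for 6, where 29.3% and 30.7% of all genes did so. Without replicate 2 of 0 Gy saline the adjusted p of Tnfsf4 was 0.0663 and that of Tnfrsf18 was 0.0455.

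With the 3 irradiated groups averaged, Tnfsf4 was at least 6.61-fold higher than in 0 Gy saline (limma adjusted p = 0.00166) and Tnfrsf18 was 4.59-fold higher (log2 fold change 2.20 ± 0.09, limma adjusted p = 0.00129). These 2 members rose and none fell, where 1.34% of 21758 genes rose and 1.02% fell. All 6 irradiated arrays lay above both arrays of 0 Gy saline for 7 members, namely Tnfsf4, Tnfsf8, Tnfrsf18, Tnfrsf4, Tnfrsf12a, Tnfrsf1a and Tnfrsf1b, and below them for 3, Tnfrsf11a, Tnfrsf13b and Tnfrsf17. Over all genes the shares were 10.6% above and 12.3% below. Without replicate 2 of 0 Gy saline the adjusted p was 0.0580 for Tnfsf4 and 0.0449 for Tnfrsf18. Without the 3 arrays that held antrum transcripts, which left 5 arrays for 4 groups, the adjusted p was 0.274 for both, at log2 fold changes of 3.51 for Tnfsf4 and 2.26 for Tnfrsf18.

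**Figure D2:**
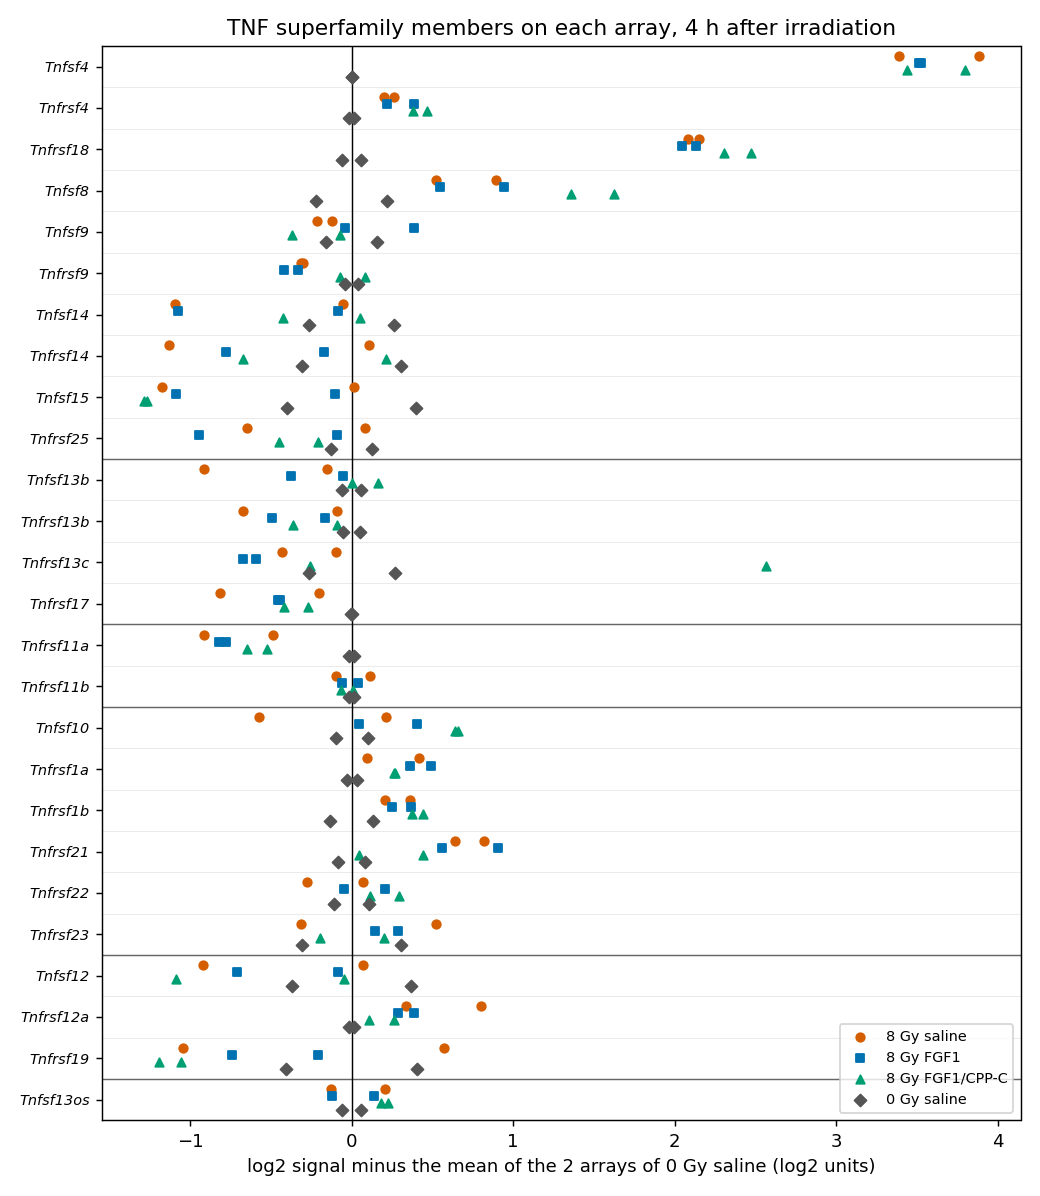
Log2 signal of each of the 26 measured members (rows, grouped by role, with lines between roles) on each array, as the difference from that gene's mean over the 2 arrays of 0 Gy saline (x axis, log2 units). Tnfsf4 and Tnfrsf18 stand apart to the right in all 3 irradiated groups, and Tnfrsf13c has 1 array of 8 Gy FGF1/CPP-C far from the other 7.

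Of 18 T cell markers listed, 15 were measured. Their median level was -1.78 and -2.46 in 8 Gy saline, -1.87 and -2.07 in 8 Gy FGF1, -1.31 and -1.51 in 8 Gy FGF1/CPP-C, and -1.88 and -1.64 in 0 Gy saline. None of the 15 passed in the 4 limma comparisons with 0 Gy saline. In 8 Gy saline 14 of the 15 had a negative log2 fold change, with a median of -0.53, and 5 were lower and none higher at an unadjusted p under 0.05, where 7.45% of all genes were lower and 4.88% higher. Foxp3, the defining factor of regulatory T cells, was at -4.74 and -5.57 in 8 Gy saline, -4.70 and -4.95 in 8 Gy FGF1, -4.35 and -5.09 in 8 Gy FGF1/CPP-C, and -4.37 and -5.15 in 0 Gy saline, with all groups overlapping. The part of these markers in the difference of Tnfrsf18 and Tnfsf4 was not tested. In whole tissue, fewer cells of a type and less RNA per cell cannot be told apart.

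The partners of these genes gave other values. Tnfrsf4, which encodes OX40, the receptor of the Tnfsf4 product, had levels of -1.05 and -1.11 in 8 Gy saline, -0.92 and -1.09 in 8 Gy FGF1, -0.93 and -0.84 in 8 Gy FGF1/CPP-C, and -1.29 and -1.32 in 0 Gy saline. All irradiated arrays lay above those of 0 Gy saline, by a small margin. The log2 fold change of Tnfrsf4 over the 3 irradiated groups was 0.32 ± 0.08 and did not pass (limma adjusted p = 0.107). Tnfsf18, the ligand of GITR, was not well above background on any of the 8 arrays, with processed signals between 4.62 and 12.8 intensity units.

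Both pairs sit next to each other in the genome. The probes of Tnfrsf4 and Tnfrsf18 lie 12.2 kb apart on chr4 of mm9, and those of Tnfsf4 and Tnfsf18 lie 87.2 kb apart on chr1. Because Tnfrsf18 passed and its neighbour Tnfrsf4 did not, the 250 bases before the annotated start of each are printed for comparison, taken from RefSeq on GRCm38.p6, 5' to 3' on the plus strand, at chr4:156026072-156026321 for Tnfrsf18 and chr4:156013445-156013694 for Tnfrsf4. Capitals mark CATG, the core of the p53 half-site, which reads the same on both strands.
Tnfrsf18: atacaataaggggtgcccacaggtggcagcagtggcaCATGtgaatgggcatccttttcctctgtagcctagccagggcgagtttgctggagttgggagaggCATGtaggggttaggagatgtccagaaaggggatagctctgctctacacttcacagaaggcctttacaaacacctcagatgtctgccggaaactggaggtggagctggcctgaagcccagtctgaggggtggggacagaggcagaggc
Tnfrsf4: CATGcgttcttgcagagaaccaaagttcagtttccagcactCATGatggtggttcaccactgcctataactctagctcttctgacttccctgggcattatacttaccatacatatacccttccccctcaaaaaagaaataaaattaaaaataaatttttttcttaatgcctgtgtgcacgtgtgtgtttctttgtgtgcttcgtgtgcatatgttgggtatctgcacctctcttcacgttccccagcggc
Each window holds CATG at 2 places, and 53.9% of the 32851 RefSeq windows of this length hold it at least once. GC content is 56% in the Tnfrsf18 window and 42.8% in the Tnfrsf4 window. Neither window holds a full match to the p53 half-site consensus, to the NF-kB consensus or to the AP-1 motif TGANTCA, all searched on both strands. Those 3 motifs occur in 7.13%, 3.90% and 6.75% of all windows. A window was found for 23 of the 30 member genes, and among these the p53 half-site matched in Tnfsf13b, the NF-kB consensus in Tnfrsf8 and Tnfrsf9, and the AP-1 motif in 4 genes. A match is a string of letters and not a measured binding site.

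Tnfsf8 encodes the CD30 ligand, a membrane protein of activated T cells and antigen-presenting cells. Its levels were -3.95 and -4.32 in 8 Gy saline, -3.90 and -4.30 in 8 Gy FGF1, -3.49 and -3.23 in 8 Gy FGF1/CPP-C, and -5.07 and -4.63 in 0 Gy saline. The 2 arrays of 8 Gy FGF1/CPP-C were the highest of the 8 and those of 0 Gy saline the lowest. Tnfsf8 rose 2.81-fold in 8 Gy FGF1/CPP-C over 0 Gy saline (log2 fold change 1.49 ± 0.23, limma adjusted p = 0.0428), by 1.58 within slide 1 and 1.40 within slide 2. With the slide as a block the adjusted p was 0.0746, and it passed in 10 of the 21 alternatives tried. The call was lost without replicate 1 or 2 of 8 Gy FGF1/CPP-C (adjusted p = 0.153 and 0.203), of 8 Gy FGF1 (0.0830 each) and of 0 Gy saline (0.195 and 0.143), at log2 fold changes of 1.27 to 1.71. Genes of the antrum list, Tff2 and Gkn3 among them, were lower in 8 Gy FGF1/CPP-C, and their part in this call was not tested. In 8 Gy saline and 8 Gy FGF1 against 0 Gy saline it did not pass, at 0.71 ± 0.23 and 0.75 ± 0.23 (limma adjusted p = 0.304 and 0.195). Its receptor CD30, Tnfrsf8, was not well above background on any array.

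The other costimulatory pairs did not pass in any of the 7 comparisons made. Tnfrsf9, which encodes 4-1BB, had levels of 0.78 and 0.77 in 8 Gy saline, 0.66 and 0.75 in 8 Gy FGF1, 1.16 and 1.00 in 8 Gy FGF1/CPP-C, and 1.12 and 1.04 in 0 Gy saline. The arrays of 8 Gy saline and 8 Gy FGF1 lay below those of the other groups, with log2 fold changes of -0.31 ± 0.10 and -0.37 ± 0.10 against 0 Gy saline (limma adjusted p = 0.305 and 0.150). The gene has a second probe, well above background on 5 of the 8 arrays, whose log2 fold changes in the same comparisons were -0.15 and -0.04. The brighter probe ends in a GT repeat. A GT or AC repeat of at least 16 bases is held by 106 of the 39429 probes (0.269%), this one alone among the members. Their last 30 bases, 5' to 3', are given with the repeat of 22 bases in capitals.
Tnfrsf9, brighter probe: taaaatcaGTGTGTGTGTGTGTGTGTGTGT
Tnfrsf9, dimmer probe: taacatatttgtctttaccttttttaaatc
What the brighter probe's signal measures beside Tnfrsf9 was not tested. Tnfsf9, the 4-1BB ligand, was at -3.89 and -3.80 in 8 Gy saline, -3.29 and -3.72 in 8 Gy FGF1, -3.75 and -4.05 in 8 Gy FGF1/CPP-C, and -3.52 and -3.84 in 0 Gy saline. Each irradiated group overlapped with 0 Gy saline.

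Tnfsf14 encodes LIGHT, Tnfrsf14 its receptor HVEM, and Tnfsf12 the ligand TWEAK. For the brightest probes of these 3 members the 4 arrays of slide 1 lay above the 4 arrays of slide 2. Of all genes, 6.23% did so and 0.394% did the opposite. The second probes of Tnfrsf14 and Tnfsf12 did not separate the slides. Tnfrsf14 stood at -0.57 and -1.81 in 8 Gy saline, -0.85 and -1.45 in 8 Gy FGF1, -0.47 and -1.35 in 8 Gy FGF1/CPP-C, and -0.37 and -0.98 in 0 Gy saline, with replicate 1 the higher in each group. Its second probe was at -1.88 and -2.66 in 8 Gy saline. In the other groups replicate 2 was the higher, at -2.32 and -2.00 in 8 Gy FGF1, -1.86 and -1.77 in 8 Gy FGF1/CPP-C, and -2.04 and -1.89 in 0 Gy saline. Tnfsf14 was at -4.29 and -5.33 in 8 Gy saline, -4.32 and -5.32 in 8 Gy FGF1, -4.19 and -4.67 in 8 Gy FGF1/CPP-C, and -3.97 and -4.51 in 0 Gy saline. Tnfsf12 was at 0.15 and -0.84 in 8 Gy saline, -0.01 and -0.63 in 8 Gy FGF1, 0.03 and -1.01 in 8 Gy FGF1/CPP-C, and 0.45 and -0.29 in 0 Gy saline. Its second probe overlapped between slides, at -3.93 to -3.61 on slide 1 and -4.15 to -3.78 on slide 2. Over the 3 irradiated groups their log2 fold changes were -0.40 ± 0.42 for Tnfrsf14, -0.45 ± 0.38 for Tnfsf14 and -0.46 ± 0.41 for Tnfsf12 (limma adjusted p = 0.630, 0.563 and 0.577).

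Tnfsf15 encodes TL1A, which costimulates through the death-domain receptor DR3, encoded by Tnfrsf25. Tnfsf15 levels were -4.15 and -2.96 in 8 Gy saline, -3.08 and -4.06 in 8 Gy FGF1, -4.26 and -4.24 in 8 Gy FGF1/CPP-C, and -2.58 and -3.38 in 0 Gy saline. The 3 highest values were those of the arrays with high antrum markers. Tnfrsf19, which encodes TROY, an orphan receptor of epithelial stem cells, showed the same 3 arrays highest, with levels of -2.35 and -0.73 in 8 Gy saline, -1.52 and -2.05 in 8 Gy FGF1, -2.37 and -2.50 in 8 Gy FGF1/CPP-C, and -0.90 and -1.72 in 0 Gy saline. In 8 Gy FGF1/CPP-C, which had no such array, the log2 fold change against 0 Gy saline was -1.28 ± 0.51 for Tnfsf15 and -1.13 ± 0.55 for Tnfrsf19, and neither passed (limma adjusted p = 0.217 and 0.289). The part of the antrum markers in these values was not tested. Tnfrsf25 was at -2.14 and -1.40 in 8 Gy saline, -1.58 and -2.43 in 8 Gy FGF1, -1.93 and -1.70 in 8 Gy FGF1/CPP-C, and -1.36 and -1.61 in 0 Gy saline, and 8 Gy saline overlapped with 0 Gy saline.

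**Figure D3:**
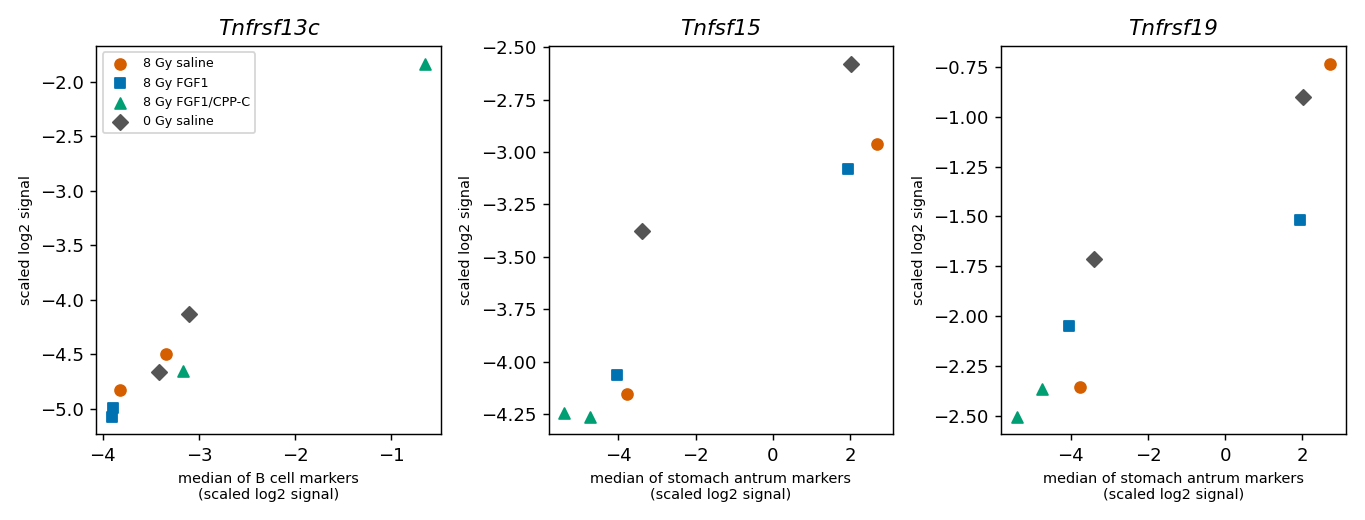
Scaled log2 signal of Tnfrsf13c against the median of 9 B cell markers (left), and of Tnfsf15 and Tnfrsf19 against the median of 13 stomach antrum markers (middle and right), with 1 point per array. The array of 8 Gy FGF1/CPP-C at the upper right of the left plot is replicate 2, and the 3 points at the right of the other plots are 8 Gy saline replicate 2, 8 Gy FGF1 replicate 1 and 0 Gy saline replicate 1.

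The ligand and receptors of B cell survival did not pass in any comparison, with 4 of 4 genes measured. Tnfrsf17 alone reached an unadjusted p under 0.05, in 8 Gy saline and over the 3 irradiated groups, where 7.45% and 11.3% of all genes were lower at that level. Tnfsf13b, which encodes BAFF, had levels of -0.77 and -1.53 in 8 Gy saline, -1.00 and -0.67 in 8 Gy FGF1, -0.45 and -0.62 in 8 Gy FGF1/CPP-C, and -0.68 and -0.56 in 0 Gy saline. Tnfrsf17, which encodes the plasma cell receptor BCMA, was at -1.23 and -1.85 in 8 Gy saline, -1.47 and -1.48 in 8 Gy FGF1, -1.44 and -1.30 in 8 Gy FGF1/CPP-C, and -1.02 and -1.03 in 0 Gy saline. Every irradiated array was below those of 0 Gy saline for Tnfrsf17, with a log2 fold change over the 3 groups of -0.43 ± 0.16 (limma adjusted p = 0.212). Without replicate 1 of 8 Gy saline it passed, at -0.54 (adjusted p = 0.0476). Tnfrsf13b, which encodes the receptor TACI, was also lower on all 6 by its brighter probe, at -2.47 and -3.05 in 8 Gy saline, -2.54 and -2.87 in 8 Gy FGF1, -2.47 and -2.74 in 8 Gy FGF1/CPP-C, and -2.32 and -2.43 in 0 Gy saline, and did not pass (-0.31 ± 0.18, limma adjusted p = 0.398). The second probe of Tnfrsf13b overlapped. It was at -3.89 on replicate 1 of 8 Gy saline and -3.88 on replicate 1 of 8 Gy FGF1/CPP-C, above -4.02 on replicate 2 of 0 Gy saline.

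Tnfrsf13c, which encodes the BAFF receptor of mature B cells, stood apart on a single array. Its levels were -4.49 and -4.83 in 8 Gy saline, -5.07 and -4.99 in 8 Gy FGF1, -4.65 and -1.83 in 8 Gy FGF1/CPP-C, and -4.13 and -4.66 in 0 Gy saline. Replicate 2 of 8 Gy FGF1/CPP-C was over 2 log2 units above the other 7 arrays. A second probe, well above background on 5 arrays, was also highest there but by little, at -4.58 on that array and between -5.59 and -4.93 on the others, with a log2 fold change of that group against 0 Gy saline of 0.44 ± 0.16 (limma adjusted p = 0.196). For the brighter probe the log2 fold change of that group against 0 Gy saline was 1.15 ± 0.84 (limma adjusted p = 0.456), and -0.52 within slide 1 and 2.83 within slide 2. The median of the B cell markers was also highest on that array. Ms4a1 was there at -0.65 and Cr2 at -0.35. Their ranges over the other 7 arrays were -7.74 to -4.13 for Ms4a1 and -3.90 to -2.18 for Cr2. Cd22 went the other way, with its lowest level, -2.75, on that array, against -2.72 to -2.04 elsewhere. Of the 9 measured markers, 8 had a positive log2 fold change in that group against 0 Gy saline. The negative one, Cd22 at -0.62, was the only one to pass in limma. The part of these markers in the value of Tnfrsf13c was not tested.

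Tnfrsf11a, which encodes RANK, the receptor that drives M cell formation in the epithelium over lymphoid follicles, had levels of 2.02 and 1.59 in 8 Gy saline, 1.73 and 1.69 in 8 Gy FGF1, 1.98 and 1.86 in 8 Gy FGF1/CPP-C, and 2.49 and 2.52 in 0 Gy saline. All 6 irradiated arrays lay below both of 0 Gy saline. The log2 fold changes were -0.70 ± 0.15 in 8 Gy saline, -0.80 ± 0.15 in 8 Gy FGF1 and -0.59 ± 0.15 in 8 Gy FGF1/CPP-C, and none passed (limma adjusted p = 0.173, 0.0878 and 0.112). Over the 3 irradiated groups Tnfrsf11a was at -0.69 ± 0.13, next to the threshold (limma adjusted p = 0.0537). It passed in that comparison when either array of 8 Gy saline was left out, with an adjusted p of 0.0277 without replicate 1 and 0.0362 without replicate 2. Under the same omissions it also passed in 8 Gy FGF1 (0.0471 each) and in 8 Gy FGF1/CPP-C (0.0454 each), each against 0 Gy saline. With normexp it passed in all 4 comparisons with 0 Gy saline (adjusted p = 0.0360 in 8 Gy FGF1, 0.0479 in 8 Gy FGF1/CPP-C, 0.0170 over the 3 groups and just under 0.05 in 8 Gy saline). Quantile normalisation and the series matrix values also gave passes over the 3 irradiated groups (limma adjusted p = 0.0496 and 0.0455). So did probes well above background on all arrays (0.0454) and trended, robust moderation (0.0317). The last of these also passed in 8 Gy FGF1 (0.0499). In the other alternatives Tnfrsf11a did not pass in any comparison. These include the slide as a block and leaving out any array of another group. Leaving out an array of 8 Gy saline left the log2 fold changes in 8 Gy FGF1 and 8 Gy FGF1/CPP-C unchanged, at -0.80 and -0.59.

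The ligand of RANK, Tnfsf11, was not well above background on any array. Tnfrsf11b, which encodes the decoy receptor osteoprotegerin, was at -2.42 and -2.63 in 8 Gy saline, -2.50 and -2.59 in 8 Gy FGF1, -2.60 and -2.52 in 8 Gy FGF1/CPP-C, and -2.55 and -2.52 in 0 Gy saline. Its log2 fold change over the 3 irradiated groups was -0.01 ± 0.09, with a 95% interval of -0.22 to 0.20.

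A further group held TRAIL, the receptors of TNF, the mouse decoy receptors and the death receptor DR6. Tnfrsf10b, left out of the members, is not in this group. Of these members 6 were measured and none passed. All 6 had a positive log2 fold change over the 3 irradiated groups, with a median of 0.27. At an unadjusted p under 0.05, 3 of the 6 were higher there, where 9.32% of all genes were. Tnfrsf1a, which encodes the main TNF receptor with a death domain, had levels of 3.37 and 3.05 in 8 Gy saline, 3.31 and 3.44 in 8 Gy FGF1, 3.22 and 3.22 in 8 Gy FGF1/CPP-C, and 2.92 and 2.98 in 0 Gy saline. Its log2 fold change over the 3 groups was 0.32 ± 0.11 (limma adjusted p = 0.179), and its other probe also gave 0.32. Tnfrsf1b, the TNF receptor without a death domain, was at -2.69 and -2.53 in 8 Gy saline, -2.53 and -2.65 in 8 Gy FGF1, -2.52 and -2.45 in 8 Gy FGF1/CPP-C, and -2.76 and -3.03 in 0 Gy saline (0.33 ± 0.10, limma adjusted p = 0.151). For both receptors the irradiated arrays did not overlap with those of 0 Gy saline.

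Tnfrsf21 encodes DR6, a death-domain receptor. Its levels were -0.64 and -0.46 in 8 Gy saline, -0.37 and -0.72 in 8 Gy FGF1, -0.84 and -1.23 in 8 Gy FGF1/CPP-C, and -1.20 and -1.37 in 0 Gy saline. The arrays of 8 Gy saline and 8 Gy FGF1 lay above those of 0 Gy saline, while 8 Gy FGF1/CPP-C overlapped with it. The log2 fold changes of Tnfrsf21 against 0 Gy saline were 0.73 ± 0.19, 0.73 ± 0.19 and 0.25 ± 0.19 for 8 Gy saline, 8 Gy FGF1 and 8 Gy FGF1/CPP-C, and none passed (limma adjusted p = 0.217, 0.140 and 0.477).

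Tnfsf10, which encodes the death ligand TRAIL, was at 0.15 and -0.63 in 8 Gy saline, -0.01 and 0.35 in 8 Gy FGF1, 0.59 and 0.60 in 8 Gy FGF1/CPP-C, and -0.16 and 0.04 in 0 Gy saline. Only in 8 Gy FGF1/CPP-C were both arrays above those of 0 Gy saline, and the log2 fold change of 0.65 ± 0.27 did not pass (limma adjusted p = 0.228). The mouse decoy receptors Tnfrsf22 and Tnfrsf23, which bind TRAIL, lay on chr7 of mm9 with probes 28.3 kb apart. Tnfrsf22 was at -3.47 and -3.81 in 8 Gy saline, -3.58 and -3.33 in 8 Gy FGF1, -3.24 and -3.42 in 8 Gy FGF1/CPP-C, and -3.43 and -3.64 in 0 Gy saline. Tnfrsf23 was at -0.84 and -0.01 in 8 Gy saline, -0.39 and -0.24 in 8 Gy FGF1, -0.33 and -0.73 in 8 Gy FGF1/CPP-C, and -0.22 and -0.84 in 0 Gy saline. Their log2 fold changes over the 3 irradiated groups were 0.06 ± 0.14 and 0.11 ± 0.27, smaller than their standard errors. Tnfrsf26, beside them, was well above background on 1 array, replicate 2 of 8 Gy FGF1/CPP-C, with 45.4 intensity units there and 10.8 to 29.9 on the other arrays.

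Tnfrsf12a encodes Fn14, the receptor of TWEAK, which injured epithelium makes. It had levels of 1.27 and 1.74 in 8 Gy saline, 1.22 and 1.32 in 8 Gy FGF1, 1.20 and 1.04 in 8 Gy FGF1/CPP-C, and 0.92 and 0.95 in 0 Gy saline. All irradiated arrays were above those of 0 Gy saline, with log2 fold changes of 0.57 ± 0.17, 0.34 ± 0.17 and 0.19 ± 0.17 in the order 8 Gy saline, 8 Gy FGF1 and 8 Gy FGF1/CPP-C. None of these passed (limma adjusted p = 0.263, 0.377 and 0.547). Tnfsf13os lay between 2.67 and 3.02 on the 8 arrays, with a log2 fold change over the 3 groups of 0.08 ± 0.12.

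The comparisons among irradiated groups asked whether the pretreatments changed these members. Against 8 Gy saline, no member passed in limma in 8 Gy FGF1, and 0% of the 21777 genes tested did in either direction. No member had an unadjusted p under 0.05, where 0.992% of all genes were higher and 0.730% lower at that level. Tnfsf4 differed by -0.12 ± 0.19 (95% interval -0.59 to 0.36) and Tnfrsf18 by -0.03 ± 0.10 (-0.29 to 0.23), both on the log2 scale. The fit pools all 4 groups, and 0 Gy saline, at the floor, adds no spread for Tnfsf4. The standard errors and intervals of Tnfsf4 here and below may therefore be too narrow. The 4 members of smallest unadjusted p in that comparison were Tnfsf9 (0.34 ± 0.19), Tnfsf10 (0.41 ± 0.27), Tnfrsf12a (-0.23 ± 0.17) and Tnfrsf1a (0.17 ± 0.13), all with a limma adjusted p of 1. Levels did not overlap for 1 member above and 2 below, where 11.1% and 7.83% of all genes did so.

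No member passed in limma in 8 Gy FGF1/CPP-C against 8 Gy saline, where 0% of 21777 genes rose and 0.00918% fell. At an unadjusted p under 0.05, 4 members were higher and 1 lower, where 7.35% and 4.57% of all genes were. The 4 were Tnfsf8 (0.78 ± 0.23), Tnfsf10 (0.83 ± 0.27), Tnfrsf9 (0.31 ± 0.10) and Tnfrsf18 (0.27 ± 0.10), and the lower one was Tnfrsf21 (-0.48 ± 0.19), with limma adjusted p-values between 0.354 and 0.407. Levels did not overlap for 8 members above and 4 below, where 25.2% and 19.2% of all genes did so. For Tnfsf4 the difference was -0.02 ± 0.19, with a 95% interval of -0.49 to 0.46. The median log2 fold change was 0.14 over the members and 0.04 over all genes.

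T cell markers were set beside these values. All 15 measured had a positive log2 fold change in 8 Gy FGF1/CPP-C against 8 Gy saline, with a median of 0.71. None of them passed, and 9 had an unadjusted p under 0.05, where 7.35% of all genes were higher at that level. Against 8 Gy FGF1 all 15 were also positive, with a median of 0.56, and 6 had an unadjusted p under 0.05. T cell markers were not alone in 8 Gy FGF1/CPP-C against 8 Gy saline. Positive values came from 12 of 13 enterocyte, 12 of 14 macrophage and dendritic cell and 8 of 9 B cell markers. Negative values came from 7 of 10 crypt base stem cell, 5 of 8 fibroblast, 14 of 15 pancreatic acinar and all 13 antrum genes. The part of these marker genes in the values of Tnfsf8, Tnfsf10 and Tnfrsf18, like that of the lower genes of the antrum list, was not tested.

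No member passed in limma in 8 Gy FGF1/CPP-C against 8 Gy FGF1, where 0% of 21796 genes rose and 0.00918% fell. At an unadjusted p under 0.05, 3 members were higher and 1 lower, where 5.46% and 3.57% of all genes were. The 4 members of smallest unadjusted p were Tnfrsf9 (0.38 ± 0.10), Tnfsf8 (0.74 ± 0.23), Tnfrsf18 (0.30 ± 0.10) and Tnfrsf21 (-0.49 ± 0.19), with limma adjusted p-values between 0.376 and 0.523. Levels did not overlap for 10 members above and 6 below, where 24.7% and 20.9% of all genes did so. Tnfsf4 differed by 0.10 ± 0.19, with a 95% interval of -0.38 to 0.57. The median was 0.11 over the members and 0.02 over all genes.

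**Figure D4:**
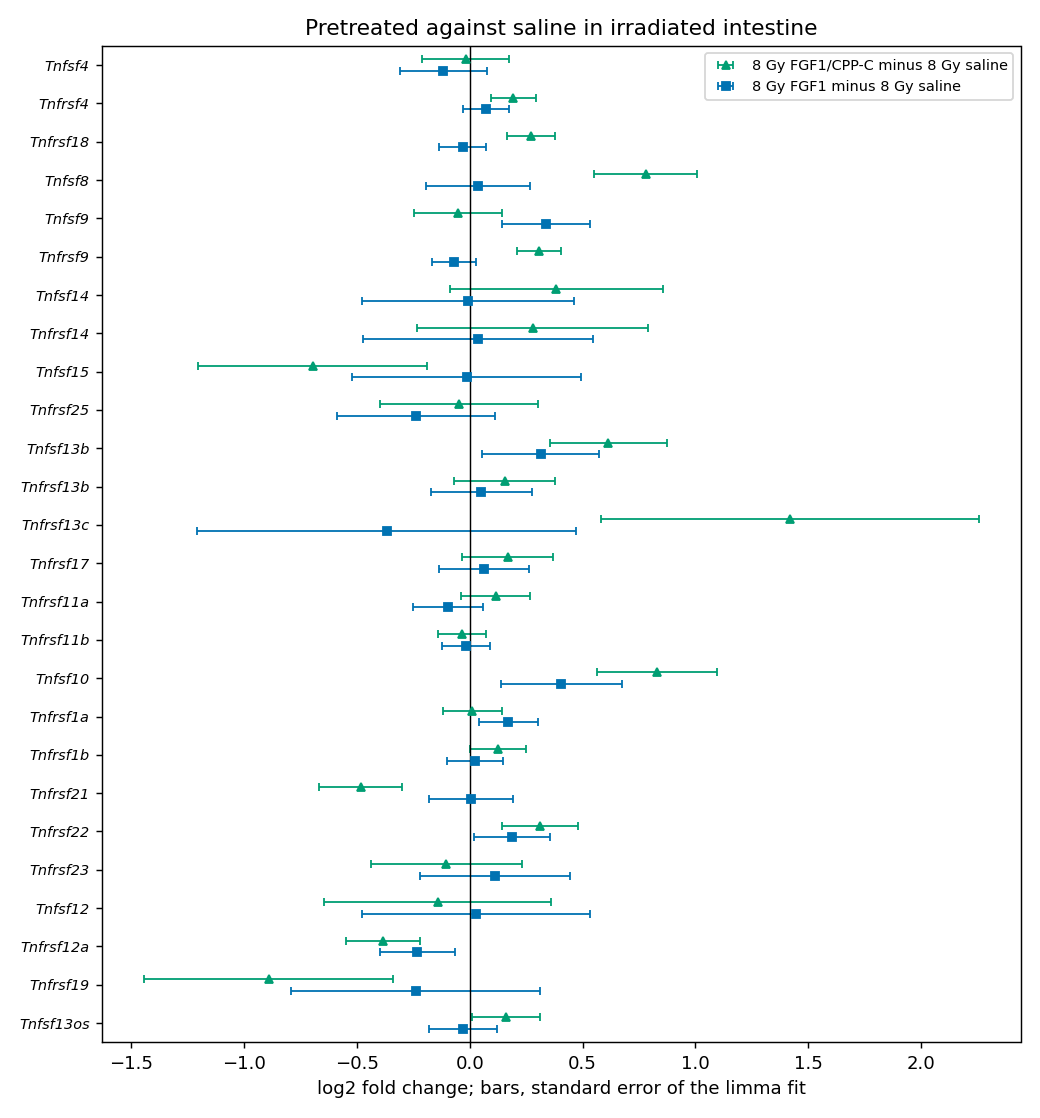
Log2 fold change of each of the 26 measured members (rows) in 8 Gy FGF1/CPP-C and in 8 Gy FGF1, each minus 8 Gy saline (x axis, log2 units), with bars for the standard error of the limma fit. No member passed in either comparison, and Tnfsf4 lies at -0.02 and -0.12.

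Superfamily genes with other names were counted from a separate list, 13 of 15 measured. Eda2r, which encodes XEDAR, a receptor of ectodysplasin A2 and a known p53 target, was the only one to pass, higher in each irradiated group. Its levels were -5.15 and -5.02 in 8 Gy saline, -4.97 and -5.24 in 8 Gy FGF1, -4.97 and -5.44 in 8 Gy FGF1/CPP-C, and at the floor of -7.74 on both arrays of 0 Gy saline, like those of Tnfsf4. Eda2r was at least 3.33-fold higher over the 3 irradiated groups (limma adjusted p = 0.00330), with the same limit as Tnfsf4, since its values in 0 Gy saline are the floor and it passed the filter through the irradiated groups. The call was lost in all 4 comparisons without replicate 1 or 2 of 0 Gy saline, with adjusted p-values of 0.0592 and 0.0759 over the 3 groups and up to 0.139 in single groups. In 8 Gy saline it was also lost without replicate 2 of that group (0.0810), and in 8 Gy FGF1 without replicate 1 or 2 of that group (0.0932 and 0.0955). With normexp the log2 fold changes were 0.64 in 8 Gy saline, 0.63 in 8 Gy FGF1 and 0.61 in 8 Gy FGF1/CPP-C, and none passed (adjusted p = 0.108, 0.0650 and 0.0572). With only the groups compared in the fit none of the 3 passed either (0.124, 0.0572 and 0.0626). Fas, the death receptor, had log2 fold changes of 0.32 ± 0.13 in 8 Gy saline, 0.42 ± 0.13 in 8 Gy FGF1 and 0.55 ± 0.13 in 8 Gy FGF1/CPP-C, and did not pass (limma adjusted p = 0.402, 0.199 and 0.0938).

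Signalling downstream of the receptors was counted from 2 further lists. All 22 adaptor and death signalling genes were measured and none passed in any of the 7 comparisons, with a median log2 fold change of 0.20 over the 3 irradiated groups, while that of all genes was -0.05. At an unadjusted p under 0.05, 5 of them were higher there and 1 lower, where 9.32% and 11.3% of all genes were. Traf4, a TRAF adaptor, was at 0.48 ± 0.10 and Casp8, the initiator caspase of death receptors, at 0.55 ± 0.14 (limma adjusted p = 0.0665 and 0.104). Of 23 genes of NF-kB factors and their targets, 19 were measured and none passed, with a median of 0.18, and at an unadjusted p under 0.05, 6 were higher and 1 lower, against the same shares of all genes. Rela, the main activating subunit, was at 0.35 ± 0.07 (limma adjusted p = 0.0650) and Bcl3, a nuclear cofactor, at 0.58 ± 0.11. Bcl3 had no value on replicate 1 of 8 Gy saline and of 8 Gy FGF1, so each of these groups rests on 1 array for it.

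Where a gene had several measured probes, as 8 members did, the probes mostly gave the same sign. Over the 3 irradiated groups against 0 Gy saline the signs differed for Tnfrsf13c, Tnfrsf23 and Tnfrsf9, with both values between -0.23 and 0.11 in each case. Tnfsf4, Tnfrsf18 and Tnfsf8 each rest on 1 probe with 1 spot per array.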

How the data were processed

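RNA of 8 samples was extracted with Trizol and RNeasy and labelled with Cy3, per the labels' protocols. Per the file headers, Agilent Feature Extraction 9.5.3.1 gave the deposited processed signal, a linear intensity after background subtraction and detrending of each array on its own, and probe coordinates are mm9. The series matrix holds the same deposited intensities, uncentred, at a ratio of 1 to the processed signal, and its column medians ran from 674 to 849 intensity units. Any normalisation by the authors between arrays is not stated in the sources used.

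Signals were divided by the 75th percentile of their array before log2 was taken, with a floor of -7.74, the lowest scaled signal well above background, a rule set after negative signals were seen. Control spots and outlier-marked spots were dropped, saturated spots kept, and spots of a probe averaged. The filter on measured probes kept 27535 of 39429, and the brightest represented its gene. RefSeq accessions named 28330 probes, symbols 2204, and 8895 kept the file's name.  Protein sequences were not used here.

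Groups were compared with limma 3.58.1 (R 4.3.3, with the package data.table, version 1.17.8) on 4 group means, with 4 residual degrees of freedom, and p was adjusted within each of 7 comparisons. The procedure was tested on simulated data with independent noise for each gene and array. Such data lack differences in tissue shared by the genes of an array, so they do not bear on the calls made here. Figures used matplotlib 3.10.9 and pandas 2.3.3 in Python 3.11.15. The members, gene lists and tests were chosen with earlier results of these data known. Those results already showed Tnfsf4 higher after irradiation, which is therefore no independent support. Per-array values were given for members that passed, for the 4 of smallest p per comparison and for members named for their role. Genes of the other lists were named when they passed or had one of the 2 smallest p.

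Replicate numbers coincide with slides. Deviations of same-numbered arrays from their group means correlated between -0.52 and 0.53 over the pairs of groups. These values cannot tell a shared slide from paired animals, because replicate number and slide are the same in every group. The numbers were taken as slides. The alternatives were other normalisations, filters, probe summaries and fits, the slide as a block, and arrays left out. The number of arrays limits the precision.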

Additional observations from a re-analysis of the deposited data

How the results depend on the processing

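Over 21 alternatives no result for a member reversed its sign where it passed in the main fit or in the alternative. Results that passed in neither were compared by the size of the change and not by sign. The log2 fold change of Tnfrsf18 stayed between 1.98 and 2.19 in 8 Gy saline, 1.91 and 2.19 in 8 Gy FGF1, and 2.23 and 2.47 in 8 Gy FGF1/CPP-C, each against 0 Gy saline. With normexp background correction that of Tnfsf4 was 1.04, 0.98 and 1.07 in these comparisons, and the call was lost in the first 2. The number of members called was 1 in 8 Gy saline and 1 in 8 Gy FGF1 with the series matrix values, and likewise 1 and 1 with probes well above background on all arrays, 2 settings that leave out Tnfsf4 by construction. With only the groups compared in the fit it was 0 in 8 Gy saline and 1 in 8 Gy FGF1. Without the 3 arrays of high antrum median the calls were lost in all 4 comparisons with 0 Gy saline, where the fit has 5 arrays for 4 groups. Leaving out 1 array at a time gave 0 to 2 members in 8 Gy saline, 0 to 3 in 8 Gy FGF1, 1 to 4 in 8 Gy FGF1/CPP-C and 1 to 4 in the 3 irradiated groups, and 0 in the comparisons among irradiated groups. A group left with 1 array is assumed to vary like the others.

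With the replicate block, which is the slide, the members called were 2, 2, 2 and 2 in those 4 comparisons. The only call the block changed among members was that of Tnfsf8 in 8 Gy FGF1/CPP-C (adjusted p = 0.0746). Over all genes the block gave 34, 77, 172 and 237 calls, against 89, 186, 419 and 514 without it, and the alternatives ranged from 0 to 146, 0 to 377, 0 to 803 and 0 to 772. Among irradiated groups they ranged from 0 to 2, 0 to 8 and 0 to 10. Of the results for members not called, 16 passed under an alternative, 15 of them of Tnfrsf11a and 1 of Tnfrsf17. The dim signals of Tnfsf4 and of the 4 members not measured limit what can be said of them.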
